A study of Mus musculus with 15 samples.

Results

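Interleukin-11 and its relatives form a cytokine family, most of whose members signal through gp130, the receptor subunit encoded by Il6st. Of the 55416 genes counted, 9 members of this family were examined in stretched mouse podocytes. The 4 ligands were Il11, Il6, Lif and Clcf1, and the 5 receptors were Il6st, Il11ra1, Il6ra, Lifr and Osmr. The members were picked by name, and Il11 was included because it was among the genes with the largest rise under stretch in these same samples. The levels of Il11 with and without stretch are therefore given as a description, without a test, and the tests concern the other members.

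These cytokines act through gp130 together with further receptor chains, some of which several cytokines share. IL-11 uses the chain encoded by Il11ra1, IL-6 that encoded by Il6ra, LIF that encoded by Lifr, and oncostatin M that encoded by Osmr. Cardiotrophin-like cytokine, encoded by Clcf1, acts through the receptor of ciliary neurotrophic factor together with Lifr and gp130. The assembled receptors activate Janus kinases, which phosphorylate STAT3, and STAT3 induces among others Socs3, a feedback inhibitor that binds gp130. In the kidney the family is known for roles in development, injury and fibrosis.

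RNA came from SVI cells, a conditionally immortalised mouse podocyte line. Podocytes are the epithelial cells around the capillaries of the kidney glomerulus, and the cells were differentiated and then seeded on flexible silicone membranes. In experiment 1, 6 cultures were stretched at the low amplitude and 3 were left unstretched. In experiment 2, 3 cultures were stretched at the high amplitude and 3 were left unstretched. Per the sample labels the membrane moved by 5 to 6 mm at the low and by 7 to 8 mm at the high amplitude, where the design text gives 6 mm and 8 mm. All cultures were of 1 cell line with no genetic change named in the labels, and no agent other than stretch is named. Because amplitude and experiment split the stretched cultures in the same way, the comparisons were made within an experiment. Nothing in the labels says that the replicates came from separate cultures grown at different times, so p-values measure the spread between these samples, which may be technical. Codes in the sample descriptions place the samples in a row of plate positions with 1 unstretched sample at the head of each run: runs 1 to 3 hold experiment 1, with 2 low-stretch samples each, and runs 4 to 6 hold experiment 2, with 1 high-stretch sample each. The labels do not say that the samples of a run were handled together.

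Total gene counts, in megacounts (M), were between 172.2 and 396.7 M per sample. Unstretched replicate 3 of experiment 2 stood apart from its group, with a score of 31.68 on the first principal component against 122.1 and 163.5 for the other 2 samples. Results in experiment 2 that depend on it are given without it as well. Of the podocyte markers, Nphs1 (nephrin), a defining gene of the slit diaphragm, was below 1 CPM (counts scaled to library size) in all 15 samples. Synpo, Podxl and Actn4, which mature podocytes share with other contractile or epithelial cells, ranged from 94.7 CPM upwards. The summed level of 5 endothelial markers was at most 0.269 CPM. Of 6 leukocyte markers, Ptprc, Adgre1, Cd3e and Itgam each had a mean under 1 CPM in every group, Adgre1 being at 0 in both unstretched groups. Csf1r and Cd68 had means above 1 CPM in every group.

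The start regions of the ligand genes are shown because all 3 ligand genes found in the RefSeq promoter table carry the same 7 letters there. The table gives 300 bases per start, of which 250 lie before it, on build GRCm38.p6. It holds 8 of the 9 members in 11 windows, and the member missing from it is the ligand Clcf1. The letters searched were TGAGTCA on either strand (TGACTCA when read on the other one), the consensus of the AP-1 transcription factors. This motif was picked after the sequences had been seen. It occurred in 1709 of the 32851 windows of that length, or 5.2%, in 3 of 3 ligands and in 0 of 5 receptors. In Il11 (chr7:4778142-4778391, minus strand) it began 98 bases before the start, in Lif (chr11:4257318-4257373, plus strand) 228 bases and in Il6 (chr5:30012864-30012898, plus strand) 249 bases before it. The stretches run 5′ to 3′ along the gene's strand and the capitals mark the match:
Il11: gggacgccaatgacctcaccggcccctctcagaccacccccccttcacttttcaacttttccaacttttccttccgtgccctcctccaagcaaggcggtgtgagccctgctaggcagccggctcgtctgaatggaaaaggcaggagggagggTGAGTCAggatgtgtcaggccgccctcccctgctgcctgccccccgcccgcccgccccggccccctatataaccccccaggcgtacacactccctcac
Lif: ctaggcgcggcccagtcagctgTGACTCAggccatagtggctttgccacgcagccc
Il6: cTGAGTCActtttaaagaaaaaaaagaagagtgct
A match describes letters in a window and is not a binding site. The Il11 window belongs to the start of Il11-201, the transcript that held 96.9% ± 1.61 (SD, n = 6) of all Il11 TPM in the low-stretch samples and 94.6% ± 2.64 (SD, n = 3) in the high-stretch samples. TPM is an abundance scaled to transcript length. The second Il11 window of the table, at the start of Il11-202, did not hold the motif. Il11-202 made up 0.326% ± 0.482 (SD, n = 6) of Il11 TPM under low stretch and 3.59% ± 4.29 (SD, n = 3) under high stretch.

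Il11 (ENSMUSG00000004371) was low in every unstretched culture. The 3 unstretched samples of experiment 1 had 2.04, 1.31 and 0.331 CPM, from 695, 438 and 105 counts. The low-stretch samples had 16.8 and 16.5 CPM in run 1, 6.80 and 10.7 CPM in run 2, and 3.77 and 3.03 CPM in run 3. Every low-stretch sample was thus above every unstretched one, where 9.03% of all genes tested were higher without overlap. This separation rests on the values that chose Il11. The low-stretch samples themselves spread widely and followed their runs: the run with the lowest unstretched sample also had the lowest stretched ones. The means were 9.60 ± 6.09 CPM (SD, n = 6) with low stretch and 1.23 ± 0.860 CPM (SD, n = 3) without, and the log2 fold change was 2.94 (standard error, SE, 0.72). Against the unstretched sample of its own run, each of the 6 low-stretch samples was between 5.19 and 11.4 times higher. The 6 ratios share 3 unstretched samples.

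In experiment 2 the unstretched cultures had 0.751, 2.497 and 1.528 CPM of Il11, and the high-stretch cultures of the same runs had 21.1, 12.5 and 17.5 CPM. The lowest stretched sample was far above the highest unstretched one, where 10.6% of all genes tested were higher without overlap. The means were 17.0 ± 4.29 and 1.59 ± 0.875 CPM (SD, n = 3 each), which made a log2 fold change of 3.41 (SE 0.45). The ratio within runs was 28.0, 5.02 and 11.5. The order reversed here, since the run with the lowest unstretched value had the highest stretched one. The effects of high and low stretch differed by 0.45 on the log2 scale (SE 0.86), less than the error of the difference. By mean level the groups followed the order high stretch, low stretch, unstretched of experiment 2, unstretched of experiment 1, and the stretched groups overlapped each other, as did the unstretched ones.

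**Figure D1:**
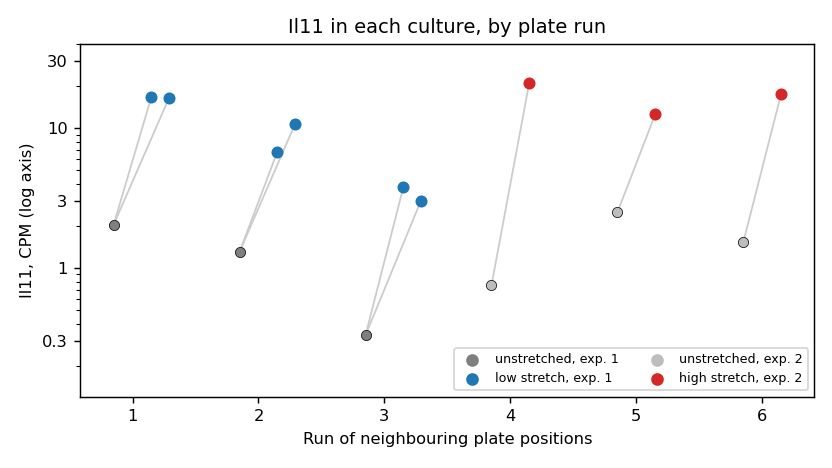
Il11 level (CPM, log axis) in each of the 15 cultures, arranged by run of plate positions; grey lines join a stretched sample to the unstretched sample of its run. Stretched samples lie between 3.03 and 21.1 CPM and unstretched ones between 0.331 and 2.497 CPM.

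Lif and Clcf1 did not share this pattern. In edgeR's quasi-likelihood test without a block for the plate run, none of the 7 other members that passed the filter on low counts had an adjusted p under 0.05. This held under low and under high stretch, where 5.45% and 3.47% of all genes tested passed. At an unadjusted p under 0.05 there were 3 of 7 in each comparison, all of them receptors, where 23.6% of all genes under low and 14.6% under high stretch had one. DESeq2 gave an adjusted p under 0.05 to 2 members under low stretch, where 11.7% of all genes passed it, and to 3 under high stretch, where 5.9% did. With the plate run as a block in edgeR, 5 of the 7 passed under low stretch, all of them receptors, where 27.6% of all genes tested did. Under high stretch 3 members, also receptors, passed with that block, where 8.38% of all genes did.

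Clcf1 (ENSMUSG00000040663) was the most abundant of the 4 member ligands. Under low stretch it ranged from 196.9 to 261.0 CPM with a median of 227.9, and its unstretched samples had 260.8, 272.8 and 220.1 CPM. The groups overlapped, with a log2 fold change of -0.17 (SE 0.11, edgeR adjusted p = 0.368). Under high stretch it had 255.0, 239.6 and 248.4 CPM against 183.6, 198.3 and 245.8 CPM, a log2 fold change of 0.24 (SE 0.17, edgeR adjusted p = 0.665). The spread between the unstretched samples was as wide as the gap, through unstretched replicate 3 at 245.8 CPM. Without that sample the log2 fold change was 0.38 (SE 0.16, edgeR adjusted p = 0.177).

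Lif (ENSMUSG00000034394), which maintains stem cells and is induced in injured tissue, had 37.9, 65.7 and 35.0 CPM in the unstretched samples of experiment 1. Its low-stretch samples ranged from 37.6 to 48.4 CPM with a median of 41.9, within the unstretched range. Its log2 fold change was -0.16 (SE 0.19, edgeR adjusted p = 0.632) and became 0.20 without unstretched replicate 2, the sample with 65.7 CPM. In experiment 2 the unstretched samples had 51.8, 62.4 and 82.9 CPM and the high-stretch samples 78.9, 69.6 and 66.8 CPM. There the log2 fold change was 0.13 (SE 0.21, edgeR adjusted p = 0.898), and -0.02 without unstretched replicate 1. Without unstretched replicate 3, the sample with 82.9 CPM, it was 0.34 (SE 0.18, edgeR adjusted p = 0.287).

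Il6 (ENSMUSG00000025746), the ligand that gave the family its name, was nearly absent. It had 2 counts in each unstretched sample of experiment 1 and 3 to 5 counts in the low-stretch samples. All 6 low-stretch samples, at 0.0070 to 0.0166 CPM, were above the unstretched ones, at 0.0059 to 0.0063 CPM, a gap of 1 to 3 counts. Of all genes tested, 9.03% were higher without overlap under low stretch. In experiment 2 there were 0, 1 and 1 counts without stretch and 4, 1 and 0 with high stretch. A count of 0 allows up to 3 counts, or 0.0189 CPM in the unstretched and 0.0123 CPM in the high-stretch sample concerned, for counting error only. Il6 did not pass the filter in any comparison, and was not tested at these counts.

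Of the receptors, Il6st (ENSMUSG00000021756), the shared signalling chain, had the largest counts and was lower in the stretched samples of every run. Its unstretched samples in experiment 1 had 567.9, 521.4 and 851.2 CPM. The low-stretch samples of runs 1, 2 and 3 had 302.2 and 390.7, 313.8 and 344.7, and 525.5 and 469.3 CPM. One low-stretch sample of run 3, at 525.5 CPM, exceeded the lowest unstretched sample, so the groups overlapped. Within the runs all 6 ratios, which share 3 unstretched samples, lay between 0.532 and 0.688. Across runs the log2 fold change was -0.75 (SE 0.20) and the edgeR adjusted p was 0.0514. Without low-stretch replicate 5 it was -0.85 (edgeR adjusted p = 0.0247) and without replicate 6 -0.81 (edgeR adjusted p = 0.0488). In a bulk sample, fewer cells that express a gene and less RNA per cell cannot be told apart.

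Under high stretch Il6st had 312.4, 233.5 and 318.8 CPM against 514.7, 435.2 and 713.8 CPM, with no overlap. In this comparison 10.3% of all genes tested were lower without overlap. The log2 fold change was -0.95 (SE 0.23, edgeR adjusted p = 0.0685). Without unstretched replicate 3, the sample that stands apart and the highest of the 3, it was -0.71 (edgeR adjusted p = 0.0382), and without unstretched replicate 2 it was -1.07 (edgeR adjusted p = 0.0452). On the length-scaled measure, Il6st stood at 196 ± 49.7 TPM (SD, n = 3) without and 111 ± 29.5 TPM (SD, n = 6) with low stretch. In experiment 2 it stood at 126 ± 54.5 TPM (SD, n = 3) without and 64.3 ± 17.5 TPM (SD, n = 3) with high stretch.

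Osmr (ENSMUSG00000022146), the chain that pairs with gp130 for oncostatin M, showed the same direction. It had 166.2, 139.5 and 202.8 CPM without stretch in experiment 1. With low stretch it had 110.9 and 125.7 CPM in run 1, 96.4 and 88.8 CPM in run 2, and 188.5 and 159.0 CPM in run 3. The run 3 samples lay within the unstretched range, although each was below the unstretched sample of its own run. Over all samples the log2 fold change was -0.43 (SE 0.22, edgeR adjusted p = 0.276). In experiment 2 the values were 60.7, 54.6 and 121.8 CPM without and 34.4, 32.6 and 38.4 CPM with high stretch. No stretched sample reached an unstretched one, where 10.3% of all genes tested were lower without overlap. The log2 fold change was -1.17 (SE 0.30, edgeR adjusted p = 0.0852). Without unstretched replicate 3, which had 121.8 CPM, it was -0.71 (edgeR adjusted p = 0.0285), and without unstretched replicate 2 it was -1.36 (edgeR adjusted p = 0.0385).

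Il11ra1 (ENSMUSG00000073889), the chain that binds IL-11 itself, was lower in all 6 low-stretch samples. It had 21.0, 23.7 and 21.8 CPM without stretch, and from 15.1 to 20.4 CPM with a median of 17.9 under low stretch. The groups did not overlap, where 6.84% of all genes tested were lower without overlap. The difference was small, with a log2 fold change of -0.34 (SE 0.10, edgeR adjusted p = 0.0784). Under high stretch it had 30.9, 54.5 and 42.0 CPM against 66.9, 82.1 and 39.6 CPM. These groups overlapped through unstretched replicate 3, and the log2 fold change was -0.57 (SE 0.31, edgeR adjusted p = 0.497), or -0.80 without that sample (edgeR adjusted p = 0.0605).

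Counts of Il11ra1 are uncertain because the mouse genome has a near-identical copy, Il11ra2. The transcripts Il11ra1-204 (1768 bases) and Il11ra2-201 (1299 bases) of the GENCODE M21 annotation were identical at 1286 of 1299 aligned positions, 99%, and the longest stretch without a difference was 356 bases. A stretch of 60 bases with 2 of the 13 differences, in capitals, shows how few positions a read can be assigned by; it covers bases 760 to 819 of the first and 645 to 704 of the second transcript, 5′ to 3′:
Il11ra1: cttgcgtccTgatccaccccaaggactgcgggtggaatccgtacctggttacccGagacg
Il11ra2: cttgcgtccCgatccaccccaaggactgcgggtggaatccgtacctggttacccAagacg
Il11ra2 was counted at 0.165 to 0.191 of the Il11ra1 count in all 15 samples. Its log2 fold changes were -0.37 under low stretch (SE 0.13, edgeR adjusted p = 0.122) and -0.59 under high stretch (SE 0.35, edgeR adjusted p = 0.543). With the counts of both genes summed, the Il11ra1 value was -0.34 under low (edgeR adjusted p = 0.0746) and -0.58 under high stretch (edgeR adjusted p = 0.498). In TPM, however, Il11ra2 was at most 0.00831 in any sample, where the group means of Il11ra1 were 20.2 to 47.6 TPM. The counts and the TPM thus disagree on the level of Il11ra2, and which of them is right was not tested.

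Lifr (ENSMUSG00000054263), shared by LIF, oncostatin M and the ciliary neurotrophic factor group, had 72.5, 51.9 and 72.3 CPM without stretch and from 39.4 to 67.9 CPM with a median of 57.7 under low stretch. The groups overlapped and the log2 fold change was -0.26 (SE 0.16, edgeR adjusted p = 0.366). In experiment 2 it had 15.99, 12.1 and 33.8 CPM without and 18.8, 11.1 and 17.4 CPM with high stretch. The log2 fold change of -0.39 (SE 0.39, edgeR adjusted p = 0.789) turned to 0.17 without unstretched replicate 3, which had 33.8 CPM.

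Il6ra (ENSMUSG00000027947), the chain that binds IL-6, was the member with the opposite direction among the receptors, at a very low level. It had 0.527, 0.442 and 0.555 CPM without stretch and from 0.609 to 0.814 CPM with a median of 0.723 under low stretch. Counts were between 148 and 269 per sample. The groups did not overlap, where 9.03% of all genes tested were higher without overlap, and the log2 fold change was 0.45 (SE 0.16, edgeR adjusted p = 0.11). With high stretch it had 0.835, 0.542 and 1.12 CPM against 0.303, 0.389 and 0.446 CPM. Again no samples overlapped, where 10.6% of all genes were higher without overlap, and the log2 fold change was 1.12 (SE 0.33, edgeR adjusted p = 0.127).

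**Figure D2:**
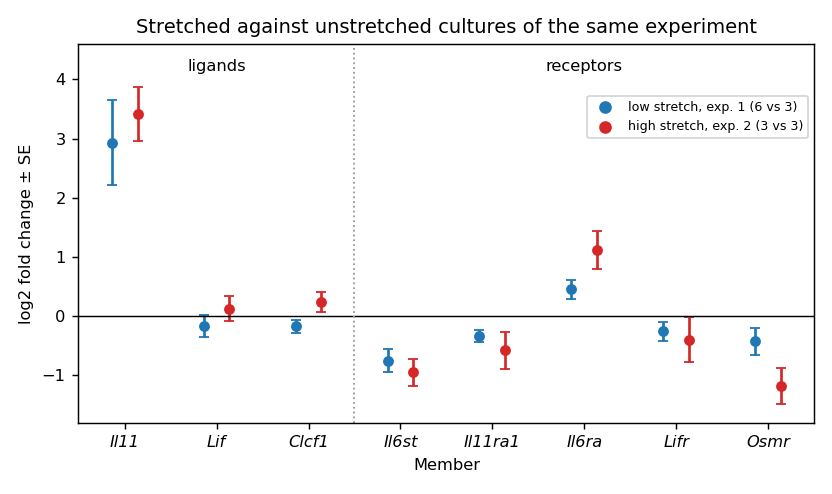
Log2 fold change with its standard error for the 8 members that passed the filter, low stretch in blue (6 against 3 samples) and high stretch in red (3 against 3). Il11 stands at 2.94 and 3.41, the ligands Lif and Clcf1 lie near 0, and 4 of the 5 receptors lie below 0 in both comparisons.

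Part of the spread between samples followed the plate runs in experiment 1, where samples of 1 run deviated together. With the run as a block in the edgeR fit, all 5 receptors passed under low stretch and neither Lif nor Clcf1 did, while 27.6% of all genes tested passed, 13.4% higher and 14.2% lower. Il6st fell by 0.74 on the log2 scale (SE 0.07, edgeR adjusted p = 8.66e-05), Osmr by 0.46 (SE 0.08, 0.00215), Il11ra1 by 0.34 (SE 0.06, 0.00149) and Lifr by 0.26 (SE 0.08, 0.0264). Il6ra rose by 0.45 (SE 0.15, edgeR adjusted p = 0.0401). The sizes were close to those without the block and the standard errors were smaller. Within runs, Il6st, Osmr, Il11ra1 and Lifr were lower in 6 of 6 low-stretch samples and Il6ra was higher in 6 of 6. The 2 low-stretch samples of a run share its 1 unstretched sample, so the 6 comparisons are not independent. The share of all genes that agreed in this way was not determined. Lif was higher in 4 of 6 and Clcf1 in 2 of 6. In experiment 2, Il6st and Osmr were lower and Il6ra was higher in 3 of 3 runs, while Il11ra1 and Lifr were lower in 2 of 3. Clcf1 was higher in 3 of 3 runs there, at 1.01 to 1.39 times its unstretched sample, and Lif in 2 of 3.

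The difference between the high-stretch and low-stretch effects was tested over all 15 samples. No member and none of 22015 genes passed (0%), and 547 genes had an unadjusted p under 0.05 but 0 of the 7 members. DESeq2 also called 0 members. The differences were -0.22 for Il6st (SE 0.32), -0.76 for Osmr (SE 0.39), -0.26 for Il11ra1 (SE 0.32), 0.65 for Il6ra (SE 0.32) and 0.39 for Clcf1 (SE 0.18), each with an edgeR adjusted p of 1. These comparisons do not show that the effects were alike.

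**Figure D3:**
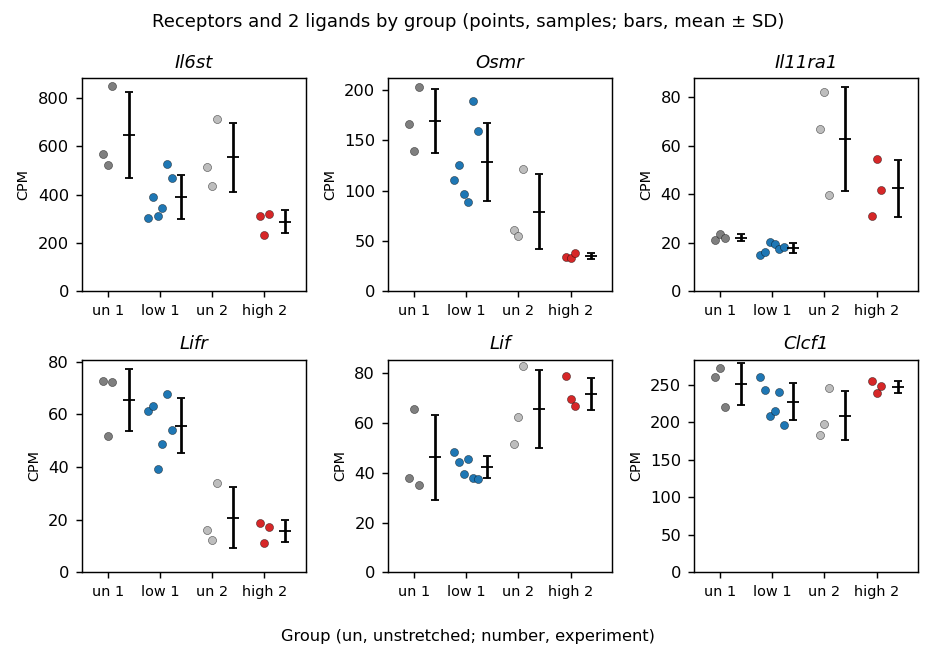
CPM of 4 receptors and 2 ligands in each sample of the 4 groups, with mean and SD beside the points and axes from 0. Il6st has means of 646.8 and 391.0 CPM in experiment 1 and 554.6 and 288.2 CPM in experiment 2, and Lif and Clcf1 overlap between stretched and unstretched samples.

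Ligands and receptors were then set side by side in TPM, the length-scaled level, summed over the transcripts of each gene. In the unstretched cells of experiment 1 the order of the member ligands was Clcf1 at 260 ± 40.5, Lif at 29.0 ± 9.41 and Il11 at 1.39 ± 0.921 TPM (SD, n = 3), with Il6 between 0.00519 and 0.0251 TPM. Each step in this order was larger than the spread between samples. Of the receptors, Il6st stood at 196 ± 49.7, Osmr at 68.3 ± 14.2, Il11ra1 at 28.1 ± 1.37, Lifr at 16.1 ± 1.58 and Il6ra at 0.178 ± 0.0191 TPM. In the unstretched cells of experiment 2 the order differed in that Il11ra1, at 47.6 ± 7.23 TPM (SD, n = 3), was above Osmr, at 21.3 ± 14.9 TPM, and Lifr stood at 5.38 ± 3.16 TPM.

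Il11 and its own receptor chain came closer in level under stretch. In experiment 1, Il11ra1 had 12.0, 20.5 and 61.3 times the TPM of Il11 in the unstretched samples. With low stretch the ratio was 1.03 and 1.15 in run 1, 3.29 and 2.08 in run 2, and 5.34 and 7.27 in run 3. In experiment 2 it was 97.9, 32.7 and 29.1 without stretch and 1.65, 4.62 and 2.64 with high stretch. The receptor was above the ligand in all 15 samples. The stretched and unstretched ratios did not overlap in either experiment, which rests mainly on the Il11 values that chose the gene. Il11 with low stretch, at 9.41 ± 6.06 TPM (SD, n = 6), remained below Lif in every sample, whose low-stretch TPM ranged from 21.3 to 27.3.

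**Figure D4:**
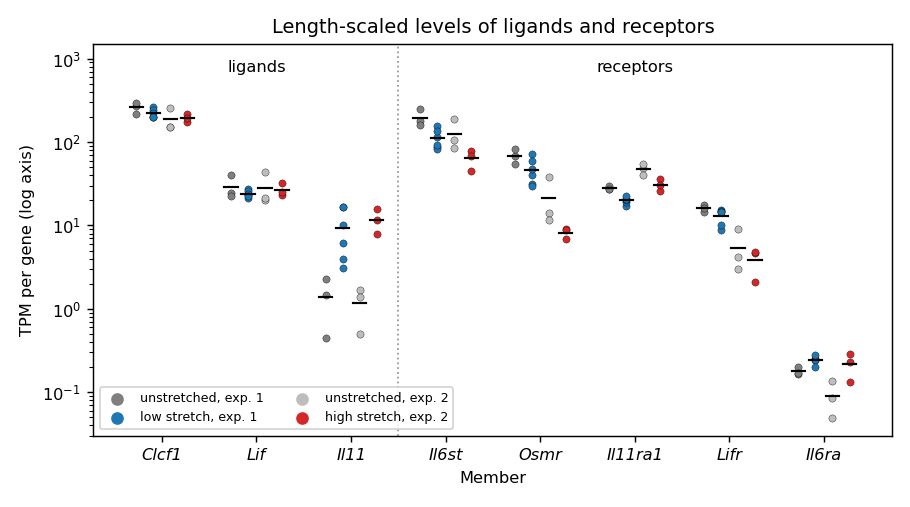
TPM per gene (log axis) of 3 ligands and 5 receptors in each sample, by group; short lines are group means. Il6, between 0 and 0.0307 TPM, is not drawn. Il11 moves from 0.445 to 2.28 TPM without stretch to 3.10 to 16.7 TPM with stretch. Of the genes drawn, Clcf1 and Il6st are the most abundant ligand and receptor in all groups.

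The unstretched groups of the experiments differed widely, 62.5% of 20707 genes passing in edgeR, and 3 of the 8 members tested were among these. Il11ra1 was higher in experiment 2 by 1.5 on the log2 scale (SE 0.28, edgeR adjusted p = 0.00536). Lifr was lower, with a log2 difference of -1.70 (SE 0.36, edgeR adjusted p = 0.00578), as was Osmr at -1.13 (SE 0.30, edgeR adjusted p = 0.0127). The call for Osmr was lost without unstretched replicate 1 of experiment 2, at -0.96 (edgeR adjusted p = 0.0565). Il11 itself differed by 0.36 (SE 0.63, edgeR adjusted p = 0.633) and Il6st by -0.24 (SE 0.25, edgeR adjusted p = 0.417). Without unstretched replicate 3 of experiment 2, Clcf1 passed as well, at -0.43 (edgeR adjusted p = 0.0178), and without unstretched replicate 2 of experiment 1, Lif passed at 0.83 (edgeR adjusted p = 0.0294). A share of 3 in 8 members is not above that of all genes.

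The relative use of the members' transcripts did not pass the test in either comparison. Under low stretch 18 transcripts of 6 members could be tested with limma and 0 passed, the lowest adjusted p being 0.267, while 4 had an unadjusted p under 0.05, as did 10% of all transcripts tested. Under high stretch 0 of 15 passed, the lowest adjusted p was 0.551, and 3 had an unadjusted p under 0.05, beside 8.04% of all transcripts. Of all transcripts, 0.0144% passed under low and 0% under high stretch. The largest transcript of Il6st, Il6st-201, made up 68.5% ± 0.988 (SD, n = 6) of the gene's TPM with low stretch, against 63.2% ± 2.37 (SD, n = 3) (limma adjusted p = 0.267). Under high stretch its share was 75.6% ± 5.55 (SD, n = 3) against 73.9% ± 1.69 (SD, n = 3). Clcf1-201 made up 60.5% ± 4.96 (SD, n = 6) against 51.9% ± 4.03 (SD, n = 3) in experiment 1 (limma adjusted p = 0.401), and 83.9% ± 3.43 against 81.1% ± 8.46 (SD, n = 3 each) in experiment 2. The retained-intron transcript Clcf1-203 held 25.1% with and 30.3% without low stretch, and 7.95% with and 8.13% without high stretch. The leading transcripts of other members were Lif-201 (44.2% and 48.9% with and without low stretch), Il11ra1-204 (58.2% and 60%), Lifr-203 (70.4% and 74.4%) and Osmr-201 (86.0% and 83.7%). Il6ra, too low for the test, was led by Il6ra-201, with 65% and 58.4% with and without low stretch and 70.4% and 46.1% with and without high stretch. The transcripts of Il6 were too low for a share to be read.

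Of 12 further ligands and receptors of the family, 6 passed the filter on low counts under low stretch and 5 under high stretch. In each comparison 1 passed the edgeR test, where 5.45% of all genes tested did under low and 3.47% under high stretch. Cntfr, the receptor of ciliary neurotrophic factor that also serves Clcf1, rose under low stretch, to between 0.750 and 1.13 CPM from 0.521, 0.374 and 0.240 CPM, a log2 fold change of 1.2 (SE 0.24, edgeR adjusted p = 0.0194). When single samples were left out it passed in 7 of 9 fits. Under high stretch its log2 fold change was 1.22 (SE 0.34, edgeR adjusted p = 0.112). Cntf, its ligand, fell under high stretch, to 0.157, 0.236 and 0.128 CPM from 0.656, 0.403 and 0.732 CPM (log2 fold change -1.8, SE 0.37, edgeR adjusted p = 0.0409), and had -0.84 (edgeR adjusted p = 0.0715) under low stretch. In TPM it stood at 356 ± 162 (SD, n = 3) without and 70.6 ± 5.43 (SD, n = 3) with high stretch. In experiment 1 it stood at 396 ± 98.0 TPM (SD, n = 3) without and 182 ± 97.8 TPM (SD, n = 6) with low stretch. Both measures were lower with stretch, but they disagree widely on the level of Cntf, which is therefore uncertain. With the run as a block, 2 of the 6 rose and 2 fell under low stretch, where 13.4% of all genes rose and 14.2% fell.

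Of 17 genes of the kinases, STAT proteins and their inhibitors, all passed the filter. Under low stretch 3 fell and 0 rose, where 3.6% of all genes fell and 1.85% rose. Under high stretch 1 rose and 1 fell, where 1.31% of all genes rose and 2.16% fell. The median log2 fold change of the list was 0.03 under low and -0.04 under high stretch, beside 0.01 and -0.02 over all genes tested. Socs3, the inhibitor that binds gp130, fell in both. It had 102.6, 99.6 and 117.5 CPM without and between 31.0 and 72.6 CPM with low stretch (log2 fold change -1.12, SE 0.26, edgeR adjusted p = 0.0352). In experiment 2 it had 240.9, 218.7 and 148.1 CPM without and 44.4, 79.5 and 66.1 CPM with high stretch (log2 fold change -1.68, SE 0.28, edgeR adjusted p = 0.021). No stretched sample reached an unstretched one, where 6.84% of all genes tested under low and 10.3% under high stretch were lower without overlap. The direction held in every fit that left out 1 sample, with log2 fold changes of -1.26 to -1.01 under low and -1.87 to -1.48 under high stretch, and the call in 2 of 9 and 3 of 6 of them.

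Socs2, a feedback inhibitor best known from growth hormone signalling, moved the other way. It rose under high stretch, to 59.4, 37.9 and 43.9 CPM from 13.6, 16.1 and 22.8 CPM (log2 fold change 1.42, SE 0.26, edgeR adjusted p = 0.0279). Under low stretch it had between 44.7 and 117.1 CPM against 41.7, 35.8 and 23.6 CPM, again without overlap (log2 fold change 1.08, SE 0.30, edgeR adjusted p = 0.0625), and it rose in the fit with the run as a block (edgeR adjusted p = 0.000137). Of all genes tested, 9.03% under low and 10.6% under high stretch were higher without overlap. Stat5a fell under low stretch by 0.30 on the log2 scale (edgeR adjusted p = 0.0419) and the adaptor Gab1 fell by 0.50 (edgeR adjusted p = 0.0224). Both calls were lost with all 15 samples in 1 fit (edgeR adjusted p = 0.291 and 0.0844). Both genes passed with the run as a block (edgeR adjusted p = 0.00285 and 9.27e-05). Stat3, at a mean of 173 CPM over all samples, had log2 fold changes of -0.12 (edgeR adjusted p = 0.491) and -0.28 (edgeR adjusted p = 0.48). Ptpn11, the phosphatase SHP2 that docks on gp130, had 0.12 (edgeR adjusted p = 0.292) and 0.22 (edgeR adjusted p = 0.732). With the run as a block, 4 genes of the list rose and 5 fell under low stretch, where 13.4% of all genes rose and 14.2% fell.

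**Figure D5:**
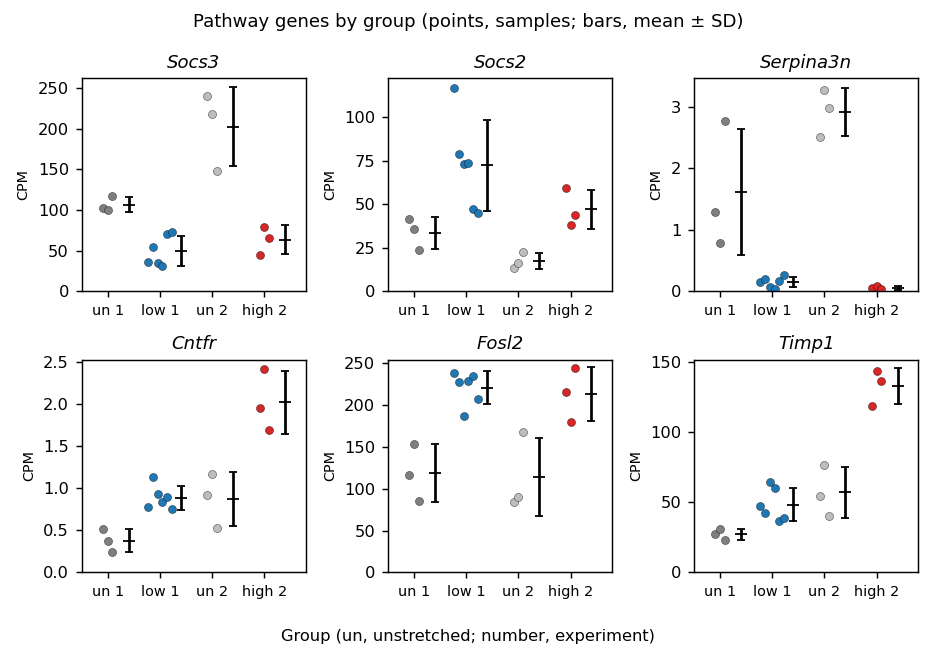
CPM of 6 genes around the family's signalling in each sample of the 4 groups, with mean and SD beside the points and axes from 0. Socs3 and Serpina3n are lower in every stretched sample than in any unstretched sample of their experiment, and Socs2, Cntfr, Fosl2 and Timp1 are higher. Of all genes tested, 9.03% were higher and 6.84% lower without overlap under low stretch, and 10.6% and 10.3% under high stretch.

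A list of 21 genes known to be induced by STAT3 in various cells did not move one way. Under low stretch 1 rose and 2 fell of 18 tested, and under high stretch 2 rose and 3 fell of 17, with medians of -0.03 and -0.22 on the log2 scale. Of all genes tested, 1.85% rose and 3.6% fell under low stretch, and 1.31% rose and 2.16% fell under high stretch. Timp1, an inhibitor of matrix proteases, rose in both, by 0.81 (SE 0.19, edgeR adjusted p = 0.0398) and 1.21 (SE 0.25, edgeR adjusted p = 0.0441). It passed in 2 of 9 and 2 of 6 fits that left out a sample. When all 15 samples were fitted together its low-stretch change had an edgeR adjusted p of 0.0573, and with the run as a block 5.45e-05. Myc, a driver of growth, rose under high stretch by 1.61 (SE 0.26, edgeR adjusted p = 0.0186) and had 1.04 (edgeR adjusted p = 0.0838) under low stretch. With the run as a block, 4 genes of the list rose and 3 fell under low stretch, where 13.4% of all genes rose and 14.2% fell. Myc was among the 4, at 1.11 (edgeR adjusted p = 6.2e-05). Serpina3n, an acute-phase protease inhibitor, was low throughout and fell to between 0.0288 and 0.0903 CPM under high stretch from 2.51, 3.27 and 2.97 CPM (log2 fold change -5.80, SE 0.43, edgeR adjusted p = 0.00246). At the low amplitude it fell by 3.44 (SE 0.52, edgeR adjusted p = 0.0064). It belongs to a multigene family and its count is uncertain. Bcl3 fell under high stretch by 1.59 (SE 0.33, edgeR adjusted p = 0.0424), at 1.07 CPM or less in every sample. Socs3, described above, is the remaining gene that fell in both. Bcl2l1 had log2 fold changes of 0.18 and 0.34 and Ccnd1 of 0.12 and 0.75, with edgeR adjusted p-values from 0.127 to 0.856.

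Genes known to act on Il11 transcription, those of AP-1 and of TGF-beta signalling, formed a list of 15. Under low stretch 2 rose and 1 fell, where 1.85% of all genes tested rose and 3.6% fell. Under high stretch 1 rose and 0 fell, where 1.31% of all genes rose and 2.16% fell. Fosl2, an AP-1 subunit, rose under low stretch, to between 186.7 and 238.6 CPM from 116.2, 153.9 and 85.0 CPM (log2 fold change 0.87, SE 0.17, edgeR adjusted p = 0.0162). Under high stretch it had 0.90 (SE 0.28, edgeR adjusted p = 0.16), and 1.30 without unstretched replicate 3 (edgeR adjusted p = 0.00211). Jun rose under low stretch by 0.38 (SE 0.07, edgeR adjusted p = 0.0162) and had 0.19 (edgeR adjusted p = 0.744) under high stretch. Fosl1 rose under high stretch, to 15.5, 13.5 and 16.3 CPM from 3.93, 7.27 and 3.86 CPM (log2 fold change 1.58, SE 0.30, edgeR adjusted p = 0.0309; 0.0851 with all 15 samples in 1 fit), and had 0.51 (edgeR adjusted p = 0.578) under low stretch.

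Fos, in contrast, fell under low stretch by 0.89 on the log2 scale (SE 0.15, edgeR adjusted p = 0.00966). Under high stretch it had 13.6, 13.8 and 11.2 CPM against 22.2, 22.0 and 234.3 CPM, the last in unstretched replicate 3. The log2 fold change was -2.84 (edgeR adjusted p = 0.16), and -0.77 without that sample (edgeR adjusted p = 0.0423). With all 15 samples in 1 fit the low-stretch change of Fos had an edgeR adjusted p of 0.443, and that of Jun 0.0613. In the fit with the run as a block these values were 0.000244 and 0.000472. Of the TGF-beta genes, Tgfbr2 and Smad3 had the highest levels, with log2 fold changes of 0.18 and 0.07 under low and 0.19 and -0.0008 under high stretch (edgeR adjusted p from 0.609 to 0.999). With the run as a block, 5 of the 15 rose and 2 fell under low stretch, where 13.4% of all genes rose and 14.2% fell. Those that passed included the TGF-beta ligands: Tgfb1 rose by 0.53 (edgeR adjusted p = 0.00236), Tgfb2 rose by 0.42 (0.00254) and Tgfb3 fell by 0.29 (0.00684). Without the block their edgeR adjusted p-values were 0.0874, 0.198 and 0.0801. Among 4 genes of receptor shedding, which releases soluble IL-6 family receptors from the surface, 0 passed in either comparison. With the run as a block 1 fell under low stretch, where 14.2% of all genes did. Adam10 had -0.10 and -0.34 and Rhbdf1 -0.17 and -0.39, with edgeR adjusted p-values from 0.159 to 0.822.

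Some markers of other cell types fell with stretch. Under low stretch these were Csf1r by 1.51 on the log2 scale (edgeR adjusted p = 0.00739), Pdgfrb of the mesangial and fibroblast list by 0.56 (0.0199) and the tubular Lrp2 by 0.65 (0.0227). Under high stretch Csf1r fell by 2.02 (edgeR adjusted p = 0.00808), and no tested mesangial, fibroblast, tubular or endothelial marker passed. The summed level of the 6 leukocyte markers was 23.4 to 25.9 CPM without and 6.65 to 13.5 CPM with low stretch, and 24.3 to 25.6 CPM without and 6.03 to 9.67 CPM with high stretch. Csf1r made up most of it, and Ptprc, Adgre1, Cd3e and Itgam were at or near 0. Cd68 did not share the fall of Csf1r. Its mean was 1.14 CPM without and 1.07 CPM with low stretch (log2 fold change -0.12, edgeR adjusted p = 0.617). In experiment 2 its mean was 1.035 CPM without and 1.89 CPM with high stretch (log2 fold change 0.86, edgeR adjusted p = 0.165). The sum of 5 tubular markers was 916 to 1080 CPM without and 480 to 754 CPM with low stretch, and 308 to 681 and 244 to 434 CPM in experiment 2; 1 of the 5 reached 1 CPM. The sum of 6 mesangial and fibroblast markers was 77.6 to 97.2 and 48.8 to 68.2 CPM in experiment 1, and 118 to 155 and 93.3 to 117 CPM in experiment 2. The podocyte list summed to 1190 to 1320 and 1300 to 1570 CPM in experiment 1, and to 1680 to 2570 and 2230 to 2840 CPM in experiment 2, mostly Actn4 and Synpo. Of its 7 tested genes, 5 had a negative log2 fold change under high stretch, with a median of -0.23. Wt1, a transcription factor of podocytes, passed: it fell by 2.36 (SE 0.45, edgeR adjusted p = 0.0311), and by 1.67 without unstretched replicate 3 (0.00358). Under low stretch 0 of 8 passed, and Wt1 had -1.16 (edgeR adjusted p = 0.0688), without overlap between the groups. There 6.84% of all genes tested were lower without overlap. The part of these lists in the values of the receptors and of Socs3 was not tested.

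The genes whose pattern was most like that of Il11 were found by Pearson's r of log2 CPM over the 15 samples, after each experiment was centred on its mean, among 12935 genes with a mean of at least 1 CPM. They were Nrp1 (r = 0.983, Spearman's rho = 0.982), a co-receptor for semaphorins and VEGF, Ank (r = 0.978, rho = 0.968), a pyrophosphate transporter, Acly (r = 0.976, rho = 0.925), the enzyme that makes cytosolic acetyl-CoA, Ccbe1 (r = 0.976, rho = 0.954), needed for lymphatic growth, and Lhfpl2 (r = 0.973, rho = 0.932). Without the 2 samples farthest from the median of Il11, unstretched replicate 3 of experiment 1 and unstretched replicate 1 of experiment 2, r ranged from 0.955 to 0.975. The sizes of their changes differed. Ccbe1 had log2 fold changes of 1.87 under low and 2.58 under high stretch and Nrp1 1.62 and 2.25, while Acly had 0.30 and 0.34. The points share their libraries, stretch state and plate run, and these correlations describe the pattern without a test.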

How the data were processed

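The authors deposited a table of gene counts for 55416 Ensembl genes and a table of TPM for 140789 transcripts, both covering 15 samples; poly(A) libraries were stranded and read in pairs, per the labels' protocols. The submitters' processing notes name mm39, STAR 2.7.5c, featureCounts, Subread 2.0.0, DESeq2 1.38.3 and Salmon 1.9.0 without saying which step used which; the strand setting of the counting is not given in the sources used here, so antisense transcripts may add to a count. The GENCODE M21 annotation (GRCm38) gave symbols to 52083 genes and genes to 137189 transcripts, and genes without a symbol held at most 0.231% of a sample's counts.

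Gene counts went into edgeR 4.0.16 under R 4.3.3 (TMM, filterByExpr, quasi-likelihood F test, Benjamini-Hochberg adjustment over all genes at 0.05), each stretched group with the unstretched samples of its experiment. The SE was taken as |log2 fold change| / √F. CPM used TMM over all 15 samples, and log2 CPM a prior count of 2. Transcript shares were tested with limma 3.58.1 on the logarithm (base 2) of transcript TPM over the TPM of the gene's remaining transcripts, each plus 0.1 TPM, for genes of at least 1 TPM and mean shares from 5 to 95%. No 2 count columns were identical. The tests were also run on simulated data drawn without plate-run effects. Such data cannot show how the tests perform on these samples. Depth was 172.2 to 396.7 M counts per sample. CPM depends on depth and composition, TPM on the transcript models.

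The members and lists were chosen with earlier results of these data known. Named were all members, every listed gene that passed under low or high stretch and up to 2 more per list with the highest mean CPM, the leading transcript of each member with a readable share, and the 5 genes most like Il11; Clcf1-203, Il11-202, Tgfb1, Tgfb2, Tgfb3 and the cell type markers were added after their values were seen. Some listed genes are not reported here. Deviations from the group means correlated within plate runs at 0.304, 0.432 and 0.451 in experiment 1, so the run was taken to pair its samples there. Low-stretch p-values given without mention of the block leave this pairing out, and so does the choice of named genes. In experiment 2, where run and replicate number coincide, the correlations were -0.159, 0.448 and 0.242, so the run was not taken to pair samples.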

Additional observations from a re-analysis of the deposited data

How the results depend on the processing

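Il11 was higher with stretch under every setting run. When each sample was left out in turn its log2 fold change was 2.49 to 3.50 under low and 3.07 to 3.92 under high stretch. Without plate run 4 or 5 the high-stretch value was 2.88 or 4.05.

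Under low stretch 0 members passed in the fit without a block, which leaves out the pairing by run, and 0 to 1 when a sample was left out. There was 1 with no filter on low counts, with a mean count of at least 100 and without plate run 3, 2 with DESeq2 1.42.0, and 5 with the plate run as a block. Genes called under low stretch numbered 1181, and 220 to 1630 when a sample was left out. They were 640 with all 15 samples in one fit, 6149 with the plate run block, 15 without plate run 1, 190 without plate run 2 and 2702 with DESeq2.

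Under high stretch 0 members passed, and 0 to 2 when a sample was left out. There was 1 without plate run 5, 2 with no filter, and 3 with all 15 samples in one fit or with DESeq2. Genes called numbered 643, and 14 to 1421 when a sample was left out. They were 1050 with no filter, 414 with a mean count of at least 100, 1488 with all 15 samples, 0 without plate run 4 and 1315 with DESeq2.

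Replicate numbers were not taken to pair the samples. As a block they gave 0 members and 496 genes under low stretch, where same-numbered samples correlated at 0.361, -0.136 and -0.437. Under high stretch, where the replicate block equals the plate run block, 3 members and 1616 genes, 8.38%, passed: Il6st (edgeR adjusted p = 0.00752), Il6ra (0.0186) and Osmr (0.00121). The block called 0 members for the difference between effects and 3 between unstretched groups. For the difference, 3 genes and 0 members passed with the plate run block. Between unstretched groups 2 to 4 members and 9312 to 15698 genes passed when a sample was left out.

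Signs turned for small values. Lif had 0.20 under low stretch without plate run 2 and -0.10 under high stretch without plate run 4, and Lifr 0.12 under high stretch without plate run 6. The difference between effects turned to -0.082 for Lif without plate run 2 and 0.36 for Lifr without plate run 6. Leaving out samples gave -0.33 to 0.20 and -0.022 to 0.34 for Lif under low and high stretch, -0.64 to 0.17 for Lifr under high stretch, -0.086 to 0.51, -0.42 to 0.44 and -0.47 to 0.046 for the differences of Lif, Lifr and Il6st, and -0.13 to 0.93 for Il11 between unstretched groups. The cause was not tested. Member transcripts passing for usage stayed at 0 under every setting run.

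Of the pathway genes, Serpina3n passed in all 9 and all 6 fits that left out a sample under low and high stretch. Under low stretch Stat5a passed in 1 of 9, Timp1 in 2, Gab1 in 6, Fosl2 and Jun in 7 and Fos in 8. Under high stretch Socs2 and Myc passed in 3 of 6, and Cntf, Bcl3, Timp1 and Fosl1 in 2. With all 15 samples in 1 fit, the low-stretch calls of Stat5a (edgeR adjusted p = 0.291), Gab1 (0.0844), Timp1 (0.0573), Fos (0.443) and Jun (0.0613) and the high-stretch call of Fosl1 (0.0851) were lost. With the plate run as a block, Stat5a, Gab1, Timp1, Fos and Jun passed under low stretch, where 27.6% of all genes tested did.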
